A study of Mus musculus with 76 samples.

Results

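Guanylate-binding proteins (GBPs), immunity-related GTPases (IRGs) and chemokines that bind CXCR3 were followed as a set of 10 genes in whole subcutaneous mouse tumors. The set was chosen by name: *Gbp2*, *Gbp3*, *Gbp5*, *Gbp6* and *Gbp7* among the GBPs, *Igtp*, *Irgm1* and *Iigp1* among the IRGs, and the chemokine genes *Cxcl9* and *Cxcl10*. These were 10 of the 55536 genes in the count table, and all 10 had counts. Tumors of CT26, a colorectal carcinoma line, and of 4T1, a mammary carcinoma line, were grown in the flank of female BALB/c mice 6 to 12 weeks old. Every tumor was injected once, on day 6, with 100 μg alum, either alone or carrying 20 μg CAT-ABP, recombinant human catalase joined to an alum-binding peptide, and was harvested on day 8. Days are those of the sample labels, and the published description places injection, DOX and harvest a day later. In CT26, 6 tumors received CAT-ABP + alum and 5 received alum. In parental 4T1, 6 received CAT-ABP + alum and 5 received alum. The 4T1-CAT line carries a lentiviral, doxycycline (DOX)-inducible human catalase that lacks its peroxisomal motif together with GFP, and 5 of its tumors received CAT-ABP + alum and 5 received alum. The 4T1-control line carries GFP without catalase, and its 6 tumors received alum. DOX diet was given from day 4 to the mice that bore either transduced line, and not to those with CT26 or parental 4T1 tumors. All tumors thus contained alum, and the hosts had intact immune systems, so RNA came from tumor cells and infiltrating cells alike. CAT-ABP is called extracellular catalase (EC CAT) and the transgene intracellular catalase (IC CAT).

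Interferon-γ (IFN-γ), made mainly by activated T cells and NK cells, binds the receptor chains IFNGR1 and IFNGR2 and activates the kinases JAK1 and JAK2. The signal reaches promoters through DNA words such as the gamma-activated site (GAS) and the interferon-stimulated response element (ISRE), the latter bound by interferon regulatory factors such as IRF1. GBPs and IRGs are large GTPases made in response to this signal and attack the vacuoles of intracellular pathogens and the pathogens themselves. CXCL9, CXCL10 and CXCL11 draw activated T cells and NK cells through the receptor CXCR3. In tumors these genes are widely used as a readout of IFN-γ reaching cells of the tissue.

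RNA was counted in 76 libraries, 2 technical libraries for each of 38 tumors, by 3′-end sequencing (HT3DGE). The counts of both libraries were added, giving 493044 to 9077549 counts per tumor (median 4827388). Levels are given as CPM, counts scaled to a common library total after TMM normalization. They are compared between tumors, not between genes. Between the 2 libraries of a tumor, log2 CPM differed by a median of 0.26 (*Cxcl10*) to 1.25 (*Gbp6*) over the 10 genes. The largest difference was 5.08, for *Cxcl10*, and the shallowest library had 46233 counts. Replicates were separate tumors. The highest correlation of 2 tumors over genes was 0.981, so no summed tumor profile was a copy of another. Single libraries of different tumors were not compared in this way. By the first part of the library index tag, all CT26 tumors, all 4T1 tumors given CAT-ABP + alum and 2 of the 4T1 alum tumors formed 1 index set, and the other tumors formed another. What an index set stands for in the laboratory is not given in the sources used here. The carcinoma markers *Epcam*, *Krt8*, *Krt18*, *Krt19* and *Cdh1* set the lines apart. Their mean log2 CPM was 6.53 to 7.89 in every tumor of the 4T1 family (4T1, 4T1-CAT and 4T1-control) and 1.40 to 2.28 in CT26. Epithelial markers were thus far lower in CT26 than in the 4T1 family, although both are described as carcinoma lines. The mouse gene *Cat* lay between 15.6 and 48.6 CPM in all tumors, and it measures neither the injected nor the transduced human catalase.

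Promoter sequences of the set are shown first because several hold the DNA words to which interferon-activated factors bind. RefSeq promoter windows on GRCm38.p6, from 250 bases before to 50 bases after each annotated start, matched 8 of the 10 genes, with 2 windows for *Gbp3*. *Gbp6* and *Iigp1* were not matched. Each window was searched on both strands for the ISRE core, 2 copies of GAAA with any 2 bases between them, and for TTCNNNGAA, the GAS core. Capitals mark these matches and nothing else. Below are 2 GBP genes that lie in the cluster on chromosome 3, both IRGs with a window, and both chemokines, written 5′ to 3′ on the strand of the gene.
*Gbp2* promoter (chr3:142620413-142620712, plus strand): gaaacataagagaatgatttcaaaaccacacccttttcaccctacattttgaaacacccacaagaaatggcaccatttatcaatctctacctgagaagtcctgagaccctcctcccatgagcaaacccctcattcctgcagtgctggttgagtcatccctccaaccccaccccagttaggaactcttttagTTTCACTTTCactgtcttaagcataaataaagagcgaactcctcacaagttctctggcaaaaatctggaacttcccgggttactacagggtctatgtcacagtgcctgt
*Gbp7* promoter (chr3:142530086-142530385, plus strand): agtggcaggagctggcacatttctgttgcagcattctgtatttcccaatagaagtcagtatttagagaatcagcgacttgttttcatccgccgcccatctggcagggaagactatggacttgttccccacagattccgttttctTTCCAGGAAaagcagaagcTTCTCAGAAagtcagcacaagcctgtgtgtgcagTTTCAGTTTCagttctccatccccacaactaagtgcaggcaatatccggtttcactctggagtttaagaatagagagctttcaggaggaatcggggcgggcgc
*Igtp* promoter (chr11:58199306-58199605, plus strand): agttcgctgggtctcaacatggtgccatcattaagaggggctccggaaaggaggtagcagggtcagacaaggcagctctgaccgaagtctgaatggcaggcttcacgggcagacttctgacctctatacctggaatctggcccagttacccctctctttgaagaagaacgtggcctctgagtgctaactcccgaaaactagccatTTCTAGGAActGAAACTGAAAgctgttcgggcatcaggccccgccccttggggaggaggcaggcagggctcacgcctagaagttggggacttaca
*Irgm1* promoter (chr11:48871371-48871670, minus strand): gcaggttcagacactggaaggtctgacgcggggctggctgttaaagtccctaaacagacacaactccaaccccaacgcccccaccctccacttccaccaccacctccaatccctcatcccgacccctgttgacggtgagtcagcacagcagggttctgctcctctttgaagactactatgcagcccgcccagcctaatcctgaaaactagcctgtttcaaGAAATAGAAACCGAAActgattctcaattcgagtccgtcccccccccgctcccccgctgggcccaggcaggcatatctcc
*Cxcl9* promoter (chr5:92328030-92328329, minus strand): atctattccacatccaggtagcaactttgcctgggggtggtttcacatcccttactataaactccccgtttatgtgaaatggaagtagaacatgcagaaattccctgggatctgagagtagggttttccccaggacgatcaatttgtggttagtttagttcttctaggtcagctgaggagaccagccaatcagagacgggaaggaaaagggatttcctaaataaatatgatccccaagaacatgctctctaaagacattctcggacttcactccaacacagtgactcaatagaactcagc
*Cxcl10* promoter (chr5:92348840-92349139, minus strand): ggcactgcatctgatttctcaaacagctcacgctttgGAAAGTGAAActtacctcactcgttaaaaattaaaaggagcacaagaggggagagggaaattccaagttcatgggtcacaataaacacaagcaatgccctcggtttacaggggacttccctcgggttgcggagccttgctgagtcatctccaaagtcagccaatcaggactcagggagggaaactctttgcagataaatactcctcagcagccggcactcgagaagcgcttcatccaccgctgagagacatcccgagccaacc

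An ISRE match was found in 7 of the 8 genes (*Gbp2*, *Gbp3*, *Gbp5*, *Gbp7*, *Igtp*, *Irgm1* and *Cxcl10*), whereas 3.99% of the 27025 genes with a window had one (3.44% of all 32851 windows of this length). In *Gbp2* it spans −59 to −50 relative to the start, in *Gbp7* −53 to −44 and in *Igtp* −34 to −25. The *Cxcl10* match lies farther out, at −213 to −204. *Gbp3* and *Irgm1* each hold a pair of ISRE matches that share letters, at −45 to −36 and −39 to −30 in *Gbp3* and at −30 to −21 and −24 to −15 in *Irgm1*.

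GAS matches were found in *Gbp5*, *Gbp7* and *Igtp*, that is in 3 of the 8 genes against 9.55% of all genes with a window (8.3% of windows). Both words together occurred in 1 window of each of these 3 genes, that is in 3 of the 9 windows of the set, and in 0.454% of all windows. In *Igtp* the GAS match (−45 to −37) sits directly before the ISRE match, and in *Gbp7* a pair of GAS matches (−106 to −98 and −87 to −79) precedes it. No ISRE match shared letters with a GAS match in these 8 genes. *Cxcl9* held neither word in its window, which says only that these letters are absent there. A match is a description of the sequence and not a measured binding site. The same search found an ISRE match in 5 and a GAS match in 4 of the 6 other interferon-inducible GTPases with a window. It found them in 7 and 3 of 13 type I interferon response genes, and in 1 and 3 of 9 T and NK cell markers. Type I interferon response genes are here genes that this interferon induces, not those that encode it.

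**Figure D1:**
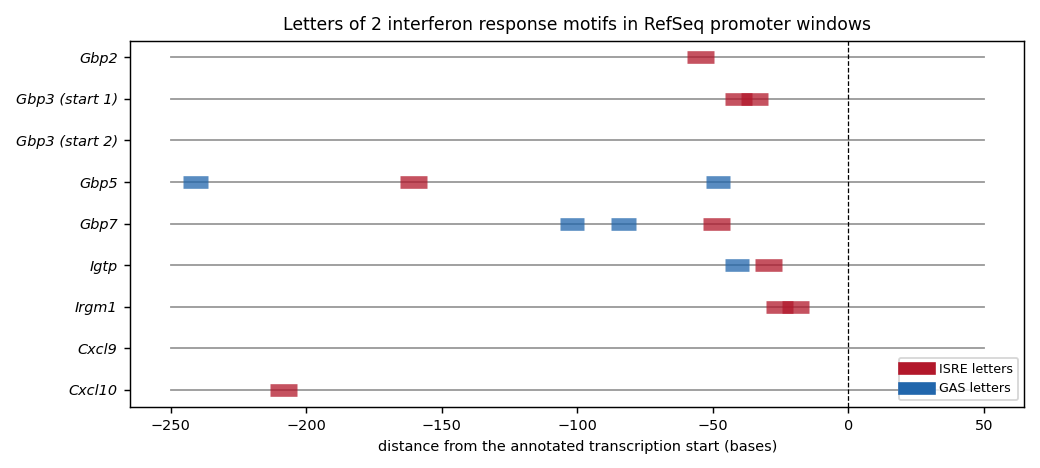
ISRE and GAS matches in the promoter windows of the set, with the distance from the annotated start in bases on the x axis and 1 row for each of the 9 windows of 8 genes. The *Cxcl10* match lies farther from the start than those of *Gbp2*, *Gbp3*, *Gbp7*, *Igtp* and *Irgm1*, and the *Cxcl9* window and the second *Gbp3* window hold none.

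On GRCm38 (GENCODE M21) *Gbp5* (chr3:142493978-142522344), *Gbp7* (chr3:142530342-142550149), *Gbp3* (chr3:142560026-142573209) and *Gbp2* (chr3:142620602-142638008) follow each other on the plus strand. *Gbp6* (chr5:105270702-105293698, minus strand) lies in another cluster. *Cxcl9* (chr5:92321347-92328079), *Cxcl10* (chr5:92346638-92348889) and *Cxcl11* (chr5:92359544-92365485) are adjacent on the minus strand, and *Igtp* (chr11:58199556-58207591) and *Irgm1* (chr11:48861968-48871683) lie on opposite strands of chromosome 11. Neighbors so alike can share reads. Of the 50-base words in annotated *Gbp6* transcripts, 90.2% also occur in the overlapping gene model *Gm43302*, and in the last 500 bases of the transcripts 77.8% do. *Gm43302* received 10023 counts over all tumors against 1928 for *Gbp6*. The *Gbp6* count is therefore uncertain, and its values are also given with both models counted together, an alternative chosen after the data were seen. The model of *Irgm2* overlaps that of *Igtp* on the same strand over 7974 bases. *Igtp* shares 11.8% of its words with *Irgm2* and *Gbp7* 12.7% with other models, none of them in the last 500 bases. For the other genes of the set the share was 0% to 3.83%. *Cxcl10* lies across *Art3* on the opposite strand, which received 675 counts against 9717 for *Cxcl10*, and whether the counting used strand is not given in the sources used here.

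All 10 genes were higher in CT26 than in 4T1 tumors, with alum alone and again in the separate tumors given CAT-ABP + alum. With alum alone the difference ran from 2.55-fold for *Irgm1* to 21.3-fold for *Cxcl9*, and for each gene the 5 CT26 tumors lay above the 5 4T1 tumors without overlap. Of the 12817 genes tested, 21.3% were called higher and 13.4% lay higher without overlap. In bulk RNA a larger number of expressing cells and more RNA per cell cannot be told apart, and the 2 lines differ in many genes at once (42.4% called in either direction).

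Among the GBPs, *Gbp2* encodes an abundant GTPase of the family that assembles on pathogen vacuoles. In CT26 alum tumors it measured 852, 917, 933, 859 and 413 CPM. In 4T1 alum tumors it measured 104, 101, 88.6, 103 and 52.8 CPM. The lowest CT26 tumor (replicate 5) was thus well above the highest 4T1 tumor. The log2 fold change was 3.17 (SE 0.25, n = 5 tumors per group; p adjusted over all genes by Benjamini-Hochberg, from the edgeR quasi-likelihood fit = 8.78e-08). The exact two-sided permutation test gave p = 0.00794 for this and each other gene of the set, the smallest value that 5 against 5 tumors allow.

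*Gbp5*, whose product promotes inflammasome assembly, had few counts. It measured 25.2, 47.0, 22.8, 17.7 and 10.7 CPM in CT26 alum tumors against 3.04, 3.45, 1.32, 4.08 and 1.04 CPM in 4T1. The groups did not overlap, and the log2 fold change was 3.2 (SE 0.41). *Gbp7* spanned 239.6 to 474 CPM in CT26 and 42.7 to 86.1 CPM in 4T1 (log2 fold change 2.73, SE 0.22). *Gbp3* spanned 209.9 to 498 CPM and 35.6 to 74.2 CPM (2.96, SE 0.26). Both were therefore lowest in the same CT26 tumor as *Gbp2*, replicate 5, and still far above 4T1. *Gbp6* gave 15.4 to 69.3 CPM in CT26 and 1.51 to 8.45 CPM in 4T1, a log2 fold change of 3.65 (SE 0.46) that was 3.11 (SE 0.30) when *Gm43302* was counted with it.

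The IRGs divide into effectors, which load onto vacuole membranes, and regulators, which hold the effectors inactive on the cell's own membranes. *Iigp1* encodes an effector. It measured 499.5, 532, 464, 471 and 248 CPM in CT26 alum tumors, and 23.3, 38, 44.7, 64.2 and 30.5 CPM in 4T1 alum tumors. With a log2 fold change of 3.48 (SE 0.27), or 11.1-fold, it differed more than either regulator. The regulator *Igtp* measured 527, 620.2, 586, 615 and 331 CPM in CT26 against 68.3, 78.8, 99.4, 134 and 83.6 CPM in 4T1 (2.55, SE 0.22). The other regulator, *Irgm1*, measured 389.7, 456, 414, 378 and 275 CPM against 137, 139.7, 149.9, 193 and 143 CPM (1.35, SE 0.16). *Irgm1* had the smallest difference of the set, and its 4T1 levels were the least scattered. The confidence intervals (95%) were 2.90 to 4.05 for *Iigp1*, 2.09 to 3.01 for *Igtp* and 1.01 to 1.70 for *Irgm1*, so that of *Irgm1* did not reach the others.

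Both CXCR3 ligands were higher in CT26 as well. *Cxcl9*, which depends largely on IFN-γ in most cells, measured 388, 748, 274, 214 and 125 CPM in CT26 alum tumors. Its levels in 4T1 alum tumors were 12.5, 20.7, 15.8, 23.8 and 10.1 CPM. No tumor of one line reached the range of the other, although CT26 tumors spread widely, and the log2 fold change was 4.41 (SE 0.43; edgeR adjusted p = 9.03e-07). *Cxcl10*, which type I interferon also induces, measured 137, 155, 141, 150.1 and 72.6 CPM in CT26 and 10.1, 18.4, 15.7, 29.9 and 18.9 CPM in 4T1. Its log2 fold change was 2.81 (SE 0.26). The third ligand gene, *Cxcl11*, spanned 26.6 to 98.7 CPM in CT26 and 7.50 to 14.1 CPM in 4T1 (2.47, SE 0.31; edgeR adjusted p = 1.19e-05).

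The median log2 fold change of the 10 genes was 3.06, against 0.02 over all genes tested. Of the alum tumors, all CT26 and 2 of the 4T1 tumors were in 1 index set. With only these tumors, all 10 genes were again called higher, with log2 fold changes from 1.46 (*Irgm1*) to 4.38 (*Cxcl9*). *Gbp6* alone moved by more than 0.5 on the log2 scale, to 2.78.

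**Figure D2:**
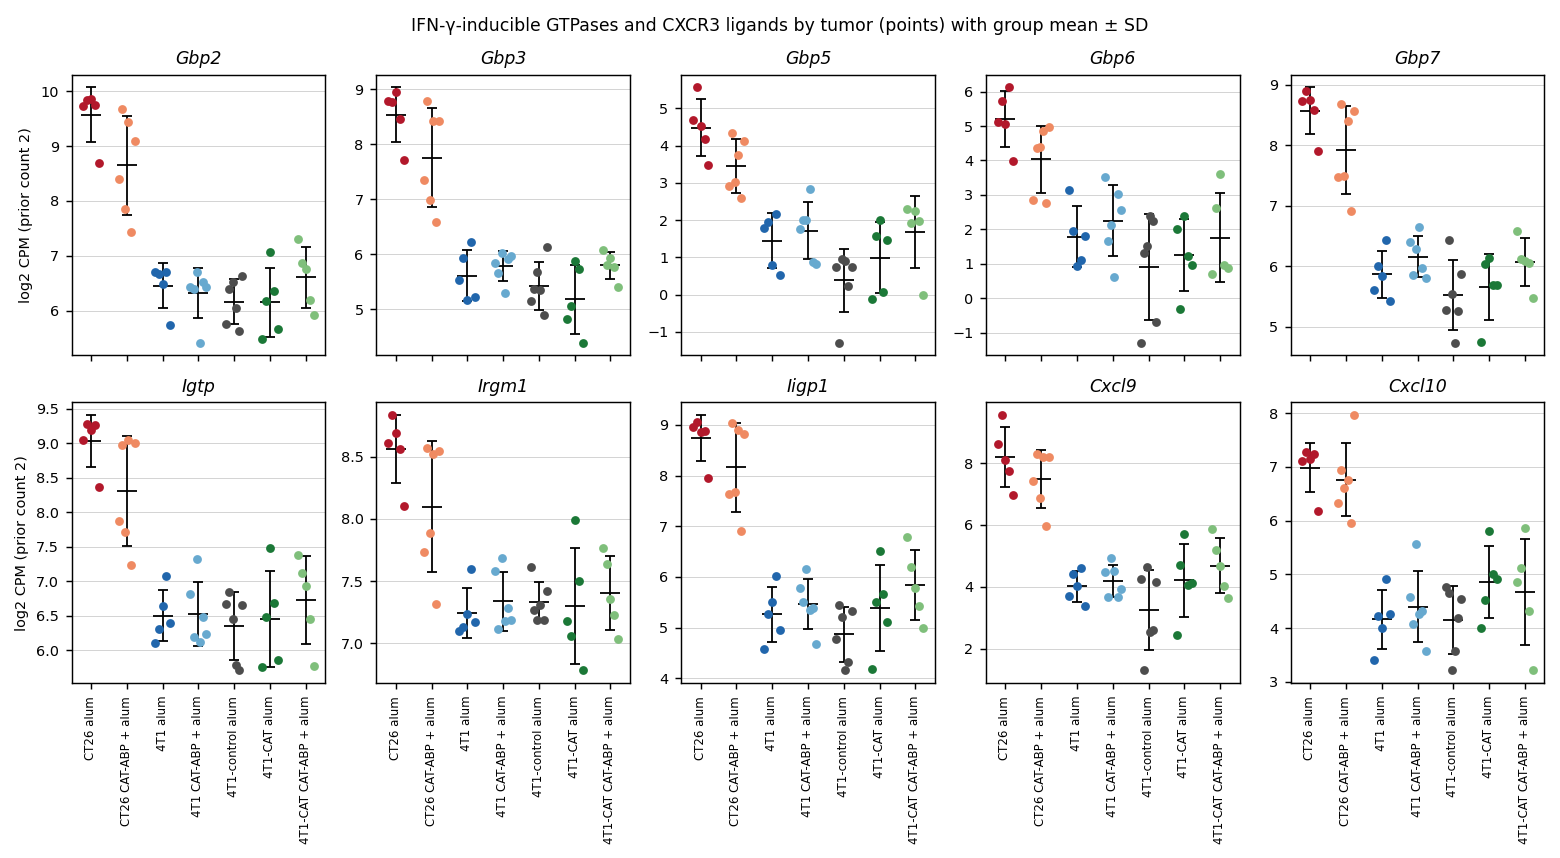
Level of each of the 10 genes in every tumor (y axis, log2 CPM), grouped on the x axis by line and treatment. Points are tumors, and bars are group means with the standard deviation. The mean of the CT26 alum tumors is the highest for every gene, CT26 tumors given CAT-ABP + alum spread widely and overlap them, and the 5 groups of the 4T1 family overlap each other.

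In the tumors given CAT-ABP + alum, all from 1 index set, all 10 genes were called higher in CT26 (of the 13016 genes tested, 21.8% were called higher and 45.5% in either direction), with log2 fold changes of 0.79 (SE 0.21) for *Irgm1*, 1.67 (SE 0.41) for *Gbp6*, 1.86 (SE 0.31) for *Igtp*, 2.47 (SE 0.32) for *Gbp2*, 2.81 (SE 0.34) for *Iigp1* and 3.46 (SE 0.38) for *Cxcl9*. The largest edgeR adjusted p was 0.00477 (*Irgm1*). The ranges did not overlap for *Gbp2*, *Gbp3*, *Gbp7*, *Iigp1*, *Cxcl9* and *Cxcl10*, 6 of 10 genes against 11.3% of all genes tested. For *Irgm1* the 6 CT26 tumors spanned 159 to 379.7 CPM (median 302) and the 6 4T1 tumors 138 to 206 CPM (median 150.4), so the lower CT26 tumors lay among the 4T1 tumors. The median of the 10 log2 fold changes was 2.12, against −0.02 for all genes.

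Across all 38 tumors the same 6 genes separated the 11 CT26 tumors from the 27 tumors of the 4T1 family completely. For *Cxcl9* the lowest CT26 tumor had 62.0 CPM and the highest of the 4T1 family 58.1 CPM, and the CT26 median was 16.0 times that of the 4T1 family. *Iigp1* was separated by a similarly small gap, with 119 CPM in the lowest CT26 tumor and 109.6 CPM in the highest other tumor. For the genes that overlapped, the number of 4T1-family tumors above the lowest CT26 tumor was 1 for *Gbp5*, 3 for *Igtp*, 4 for *Gbp6* and 10 for *Irgm1*. By mean log2 CPM, CT26 with alum ranked first and CT26 with CAT-ABP + alum second for every gene, and their ranges overlapped. Groups ranked 2 and 3 differed for every gene (exact two-sided permutation tests, p = 0.00216 to 0.0346, not adjusted). Among the 5 groups of the 4T1 family no 2 neighbors in the order were separated, with overlapping ranges and p of at least 0.236 by the same test. The order was set by these same values, so all of these tests only describe it. Neighbors are the closest groups by construction, and their p-values cannot show that the groups of the 4T1 family are alike. Groups farther apart in the order were not part of these tests.

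The genes of the pathway itself moved unevenly between the lines. *Ifng* was too low for the fitted test. In CT26 alum tumors it measured 12.8, 32.7, 7.38, 14 and 2.61 CPM, and in 4T1 alum tumors 0.676, 0.288, 0.189, 0.618 and 0.259 CPM. Every CT26 tumor lay above every 4T1 tumor (exact two-sided permutation test, p = 0.00794). With CAT-ABP + alum *Ifng* spanned 0.509 to 13.6 CPM (median 4.67) in CT26 and 0 to 0.882 CPM (median 0.0858) in 4T1, which overlapped (p = 0.00433, same test). The receptor genes *Ifngr1* (log2 fold change 0.24, SE 0.17, edgeR adjusted p = 0.273) and *Ifngr2* (−0.04, SE 0.22, 0.895) did not pass the test with alum alone. *Irf1*, a transcription factor, was higher in CT26 by 1.1 (SE 0.21) with alum and 0.78 (SE 0.26) with CAT-ABP + alum. *Jak2* was lower in CT26, by −1.26 (SE 0.19) and −1.29 (SE 0.16). Of the 11 IFN-γ signaling genes tested with alum, 4 were called higher and 1 lower, against 21.3% and 21.1% of all genes tested.

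Other interferon-inducible GTPases behaved like the set. With alum, 12 of the 13 tested were higher in CT26 (median log2 fold change 2.99), among them *Gbp4* (4.21, SE 0.29), *F830016B08Rik* (4.02, SE 0.29) and the IRG *Tgtp2* (3.18, SE 0.24). With CAT-ABP + alum 12 of 13 were higher as well (median 2.17). Of the other IFN-γ targets, 17 of 19 were higher with alum (median 1.29) and 13 of 19 with CAT-ABP + alum (0.83), including the immunoproteasome gene *Psmb9* (1.72, SE 0.13, with alum), the tryptophanyl-tRNA synthetase gene *Wars* (2.33, SE 0.20) and *Cd274*, which encodes PD-L1 (3.06, SE 0.35). Type I interferon response genes were higher in 14 of 16 and 12 of 14 cases (medians 1.76 and 1.01). With alum, *Irf7* was at 2.53 (SE 0.19) and *Ifit3* at 2.49 (SE 0.20). Over all genes tested, 21.3% were called higher with alum and 21.8% with CAT-ABP + alum. These lists share inducers with the set, and the larger medians were those of the GTPases.

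Markers of infiltrating lymphocytes differed in the same direction. All 10 T and NK cell markers tested were higher in CT26 in both settings (medians 3.59 and 2.84). *Nkg7*, of cytotoxic granules, was higher by 4.62 (SE 0.18) with alum, *Gzmb* by 4.18 (SE 0.17) and *Gzma* by 5.62 (SE 0.25). The mean log2 CPM of these 10 markers was 4.85 to 5.77 in CT26 alum tumors and 3.88 to 5.65 in CT26 tumors given CAT-ABP + alum. It was 1.66 to 2.11 in 4T1 alum tumors and 1.62 to 2.79 in 4T1 tumors given CAT-ABP + alum. *Cxcr3*, the receptor of the 3 chemokines, went the other way without passing the test, at −0.69 (SE 0.30, edgeR adjusted p = 0.0730) with alum and −0.63 (SE 0.27, 0.0641) with CAT-ABP + alum. Macrophage markers were higher in 2 of 8 with alum and 5 of 8 with CAT-ABP + alum (*Adgre1* 0.85, SE 0.21, and 1.19, SE 0.15). Over all genes tested, 21.3% and 21.8% were called higher, so the 2 of 8 with alum was near that share. Fibroblast markers were lower in 4 and higher in 1 of 6 in both settings, and all 5 epithelial markers were lower (medians −6.40 and −6.46). Over all genes tested, 21.1% and 23.7% were called lower. The part of these cell types in the levels of the 10 genes was not tested.

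**Figure D3:**
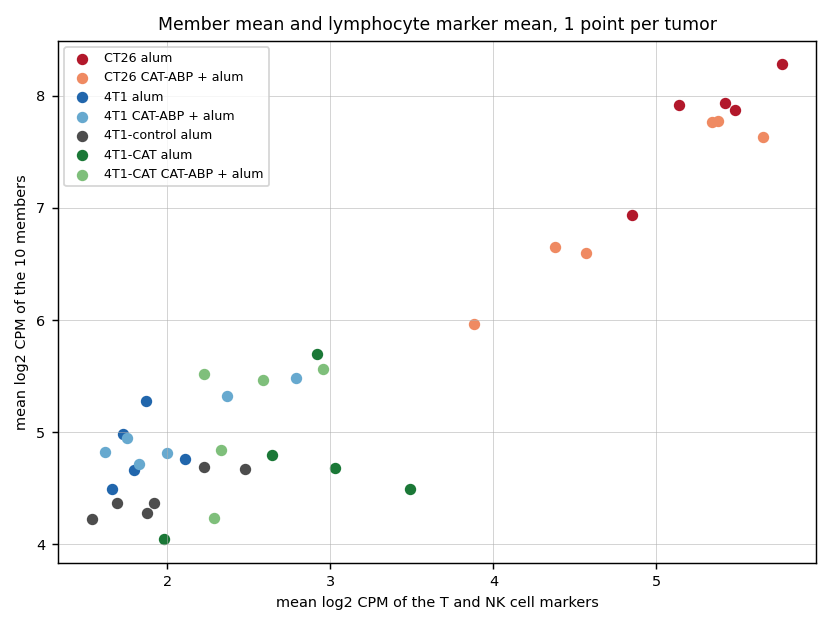
Mean log2 CPM of the 10 genes (y axis) against the mean log2 CPM of 10 T and NK cell markers (x axis), 1 point per tumor, colored by line and treatment. CT26 tumors form a separate cloud at high values of both, along which CT26 tumors given CAT-ABP + alum extend downward, and the 4T1 family forms a loose cloud at low values.

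The 10 genes varied together from tumor to tumor. With each group's mean subtracted, the 45 pairs of genes had a median Pearson r of 0.643 over the 38 tumors (−0.04 to 0.935), and 0.868 over the 11 CT26 tumors. The correlation of 1 gene with the mean of the other 9 was highest for *Igtp* (r = 0.88) and lowest for *Gbp6* (0.16), followed by *Gbp5* (0.59). *Gbp6* stood apart in the 4T1 family (r = −0.10, n = 27), where it had 0 to 75 counts per tumor, and less so in CT26 (r = 0.78, n = 11). *Gm43302* correlated with the mean of the other 9 genes at r = 0.60 (rho = 0.79), and *Gbp6* and *Gm43302* counted together at r = 0.73 (rho = 0.81). In CT26 the sum reached r = 0.996. These correlations are descriptions, over tumors that were scaled together and came from 2 index sets.

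**Figure D4:**
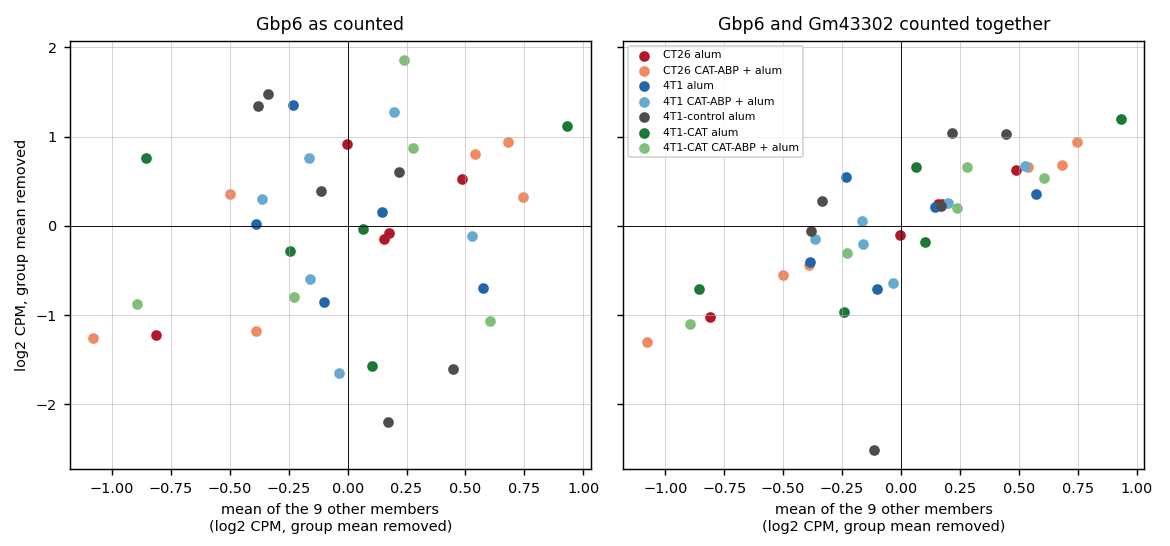
Log2 CPM of *Gbp6* with its group mean subtracted (y axis) against the mean of the other 9 genes treated in the same way (x axis), for *Gbp6* alone and for *Gbp6* and *Gm43302* counted together, 1 point per tumor. Alone, the 4T1-family points scatter without slope (r = −0.10); together, they rise along the x axis (r = 0.62).

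Among the 8 genes outside the set most like its mean, of 14636 ranked over 38 tumors after subtracting group means, were *Gbp2b* (r = 0.919, rho = 0.916), *Il18bp* (0.903), *Gbp4* (0.900), *Cxcl11* (0.877), *Gbp8* (0.862), *Irgm2* (0.859) and *Psmb9* (0.833). The model of *Irgm2* overlaps that of *Igtp*, so this pair is not independent. *Il18bp* encodes a secreted inhibitor of interleukin-18. In CT26 the mean of the set ran with that of the T and NK cell markers (r = 0.946, rho = 0.918, n = 11; r = 0.942 without the 2 tumors farthest from the median). It ran there also with type I interferon response genes (r = 0.936, rho = 0.918, and 0.872 without 2 tumors). The same held for macrophage markers (r = 0.802, rho = 0.827), but only at 0.485 without 2 tumors. Means of IFN-γ signaling genes (r = 0.928, rho = 0.918, and 0.862 without 2 tumors) and neutrophil markers (r = 0.799, rho = 0.700, and 0.731) ran with it there too. Fibroblast markers (r = 0.659, rho = 0.627) and dendritic cell markers (r = 0.631, rho = 0.691) did so less closely, at 0.506 and 0.472 without 2 tumors. The lowest values in CT26 were those of endothelial (r = 0.459) and epithelial markers (r = 0.239). In the 4T1 family the relation to T and NK cell markers was looser (r = 0.514, rho = 0.515, n = 27, and 0.358 without 2 tumors). That to type I interferon response genes was r = 0.488 (rho = 0.583, and 0.699 without 2 tumors).

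Extracellular catalase left no gene of the set past the threshold in CT26. No gene of the 12830 tested was called (0%), and 311 genes (2.42%) had an unadjusted p under 0.05 in edgeR. DESeq2 called 1 gene, which was not of the set. The paper reported more genes for this comparison with DESeq2, and the source of the difference was not tested. All 10 genes had log2 fold changes below 0, from −1.12 to −0.14 (median −0.62, with 50.7% of all genes tested below 0). With group means subtracted, these genes varied together in CT26 (median r of pairs 0.868), so the 10 signs are not independent observations. Counts of signs of the set in the comparisons below have the same limit.

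*Gbp2* did not pass the threshold after adjustment. With CAT-ABP + alum it spanned 173 to 815 CPM (median 441, n = 6), against the 852, 917, 933, 859 and 413 CPM of the alum tumors. Every treated tumor lay below 4 of the 5 alum tumors, but 3 lay above the fifth. The log2 fold change was −0.79 (SE 0.36, confidence interval (95%) −1.55 to −0.03; unadjusted p = 0.0423, edgeR adjusted p = 1.00; exact permutation p = 0.0736). For *Gbp5* the treated tumors spanned 5.60 to 20.0 CPM (median 10.4), a log2 fold change of −1.04 (SE 0.37; edgeR adjusted p = 1.00; exact permutation p = 0.0498, not adjusted). *Gbp6* was at −1.12 (SE 0.42), or −0.76 (SE 0.37) with *Gm43302*. These were the 3 genes with an unadjusted p under 0.05, all lower, against 1.53% of all genes tested.

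Among the IRGs, *Iigp1* spanned 119 to 523 CPM with CAT-ABP + alum (median 328; log2 fold change −0.44, SE 0.34). *Igtp* was at −0.60 (SE 0.32) and *Irgm1* at −0.42 (SE 0.23). *Cxcl9* spanned 62.0 to 315 CPM (median 230.2; −0.77, SE 0.44). *Cxcl10* spanned 61.8 to 249 CPM (median 103; −0.14, SE 0.31). All of these ranges overlapped those with alum, and the highest *Cxcl10* level of any tumor was in a treated one. The intervals were wide, from −1.72 to 0.17 for *Cxcl9* and from −0.80 to 0.52 for *Cxcl10*, so for *Cxcl9* neither a 1-unit fall nor no change lay outside the interval.

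The 6 treated CT26 tumors differed widely among themselves. Replicates 1, 3 and 5 had the 3 lowest levels for 9 of the 10 genes, and replicates 2, 4 and 6 the 3 highest. *Gbp2* measured 336, 815, 229.6, 697, 173 and 546 CPM in replicates 1 to 6. The exception was *Gbp6*, where replicate 2 (20.2 CPM) lay just under replicate 3 (20.6 CPM).

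Related genes had values of the same sign in CT26 without passing the test. *Ifng* was at −1.19 (unadjusted p = 0.0898), with an edgeR adjusted p of 1.00. All 14 other interferon-inducible GTPases (median −0.64), all 20 other IFN-γ targets (−0.51) and all 16 type I interferon response genes tested (−0.27) were below 0. So were 9 of 10 T and NK cell markers (−0.36). Macrophage markers were below 0 in 6 of 8 (−0.06), and neutrophil markers above 0 in 5 of 5 (median 0.58). Genes of such lists vary together, as shown above, so these counts are not independent observations.

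In parental 4T1, extracellular catalase gave no call either (0% of 13092 genes; 2.88% at an unadjusted p under 0.05 in edgeR, none of them in the set). *Gbp2* spanned 42.3 to 104 CPM with CAT-ABP + alum (median 86.2) and 52.8 to 104 CPM with alum, a log2 fold change of −0.12 (SE 0.18, interval −0.50 to 0.26). *Cxcl9* spanned 12.3 to 30.1 CPM (median 18.5) against 10.1 to 23.8 CPM (0.12, SE 0.26, interval −0.42 to 0.67). The groups overlapped for every gene, and the other 8 genes lay between 0.05 (*Igtp*) and 0.76 (*Gbp6*), the latter 0.09 with *Gm43302*. The treated tumors shared an index set with only 2 of the 5 alum tumors. Within this set no gene was called either, and *Gbp5* (−0.23) and *Gbp6* (−0.046) lay below 0. In the same comparison T and NK cell markers lay above 0 in 7 of 8 (median 0.58), neutrophil markers in 4 of 5 (0.47) and fibroblast markers in 6 of 6 (0.16), whereas macrophage markers lay below 0 in 7 of 8 (−0.30). Their part in these values was not tested.

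Whether the effect of CAT-ABP differed between the lines was tested as an interaction. It uses the same 4 groups as the CAT-ABP comparisons in CT26 and 4T1, so its values are not independent of theirs. None of the 14160 genes tested was called (0%; 3.59% at an unadjusted p under 0.05 in edgeR). All 10 genes had differences below 0 (53.2% of all genes did), that is a lower log2 fold change for CAT-ABP in CT26 than in 4T1. The differences of effect ran from −1.96 (SE 0.68, *Gbp6*, or −0.87 with *Gm43302*) to −0.44 (SE 0.47, *Cxcl10*). *Gbp7* was at −0.85 (SE 0.38, unadjusted p = 0.0353) and *Cxcl9* at −0.92 (SE 0.58), and every edgeR adjusted p was 1.00.

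**Figure D5:**
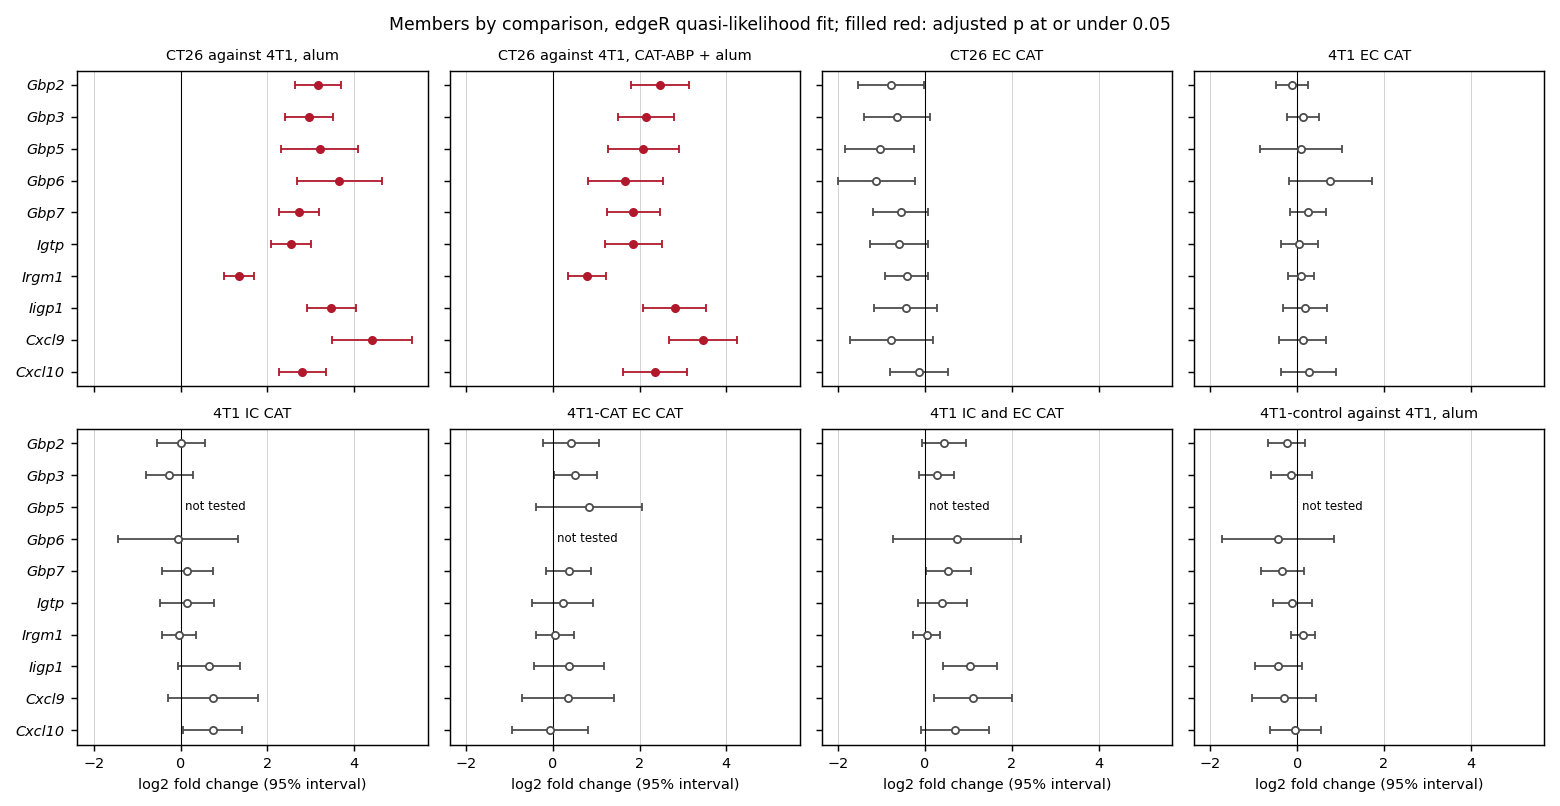
Log2 fold change of each of the 10 genes with its confidence interval (95%) in each comparison. Both comparisons of CT26 with 4T1 lie wholly above 0, CAT-ABP in CT26 lies below 0 with intervals that mostly reach 0, and the catalase comparisons in the 4T1 family scatter around or above 0.

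Extracellular catalase added to tumors that already expressed intracellular catalase was tested in 4T1-CAT. No gene was called (0% of 13093; 15.3% at an unadjusted p under 0.05 in edgeR). *Gbp2* measured 159, 117, 108, 73.0 and 60.0 CPM with CAT-ABP + alum and 44.4, 72.1, 134, 81.6 and 50.2 CPM with alum. The treated group held the highest tumor, but the ranges overlapped nearly throughout (log2 fold change 0.42, SE 0.30, interval −0.22 to 1.06). *Gbp3* gave the only unadjusted p under 0.05 of the set (0.52, SE 0.23, p = 0.0382, edgeR adjusted p = 0.302; 6.75% of all genes were below 0.05 in that direction). *Gbp6* had too few counts to be tested, and 8 of the other 9 genes lay above 0 (49.9% of all genes did), with *Cxcl10* (−0.07, SE 0.41) below. T and NK cell markers had the opposite sign, below 0 in 8 of 9 (median −0.54). The interaction with CAT-ABP in parental 4T1 called no gene (0% of 13851; 8.79% at an unadjusted p under 0.05 in edgeR), with differences of effect for the set from −0.33 (*Cxcl10*, SE 0.56) to 0.73 (*Gbp5*, SE 0.76). It shares the groups of both comparisons, which came from different index sets.

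Intracellular catalase was read from 4T1-CAT against 4T1-control tumors, both given alum on DOX diet. No gene was called (0% of 12534; 5.08% at an unadjusted p under 0.05 in edgeR). *Cxcl10* measured 15.5, 22.7, 55.5, 32.0 and 29.9 CPM in 4T1-CAT and spanned 8.87 to 26.9 CPM (median 20.4) in the 6 4T1-control tumors. Of the 5 4T1-CAT tumors, 3 exceeded every control and 2 lay within their range. The log2 fold change was 0.74 (SE 0.32, unadjusted p = 0.0341, edgeR adjusted p = 0.926; exact permutation p = 0.115). *Cxcl9* measured 5.01, 25.8, 51.6, 16.2 and 17.1 CPM against 2.05 to 24.5 CPM (median 11.4), a log2 fold change of 0.75 (SE 0.49). The lowest of these control values, in replicate 2, rested on 1 count. *Iigp1* was at 0.66 (SE 0.34), whereas *Gbp2* (0.01, SE 0.26) and *Irgm1* (−0.03, SE 0.19) lay near 0, with intervals of −0.54 to 0.57 and −0.43 to 0.37. *Gbp5* was too low to be fitted. All 8 T and NK cell markers tested lay above 0 (median 0.94), 6 of them with an unadjusted p under 0.05 against 3.57% of all genes in that direction. Fibroblast (6 of 6) and neutrophil markers (5 of 5) lay above 0 as well, and the part of these cells in the chemokine values was not tested.

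Both catalases together, 4T1-CAT with CAT-ABP + alum against the same 4T1-control tumors, were compared next. Of the 12781 genes tested, 3 were called (0.0235%; 16.9% had an unadjusted p under 0.05 in edgeR), none of them in the set. All 9 genes tested lay above 0 (53.7% of all genes did). *Iigp1* measured 109.6, 72.9, 54.4, 42.5 and 31.6 CPM against 17.4 to 43.1 CPM (median 31.7) in the controls. Of the 5 tumors, 3 exceeded every control tumor, and the log2 fold change was 1.05 (SE 0.30, interval 0.42 to 1.67; unadjusted p = 0.00242, edgeR adjusted p = 0.104; exact permutation p = 0.0346). DESeq2 called it (log2 fold change 0.98, adjusted p = 0.0460), and edgeR without the filter on low counts did too (1.08, adjusted p = 7.08e-05). *Cxcl9* measured 58.1, 36.2, 25.2, 16.1 and 12.1 CPM against 2.05 to 24.5 CPM, where the lowest control value rested on 1 count. For *Cxcl9* the log2 fold change was 1.1 (SE 0.43, edgeR adjusted p = 0.192, and 0.00178 without the filter). Its ranges overlapped, as did those of *Cxcl10* (28.6, 34.4, 57.8, 19.5 and 8.90 CPM; 0.69, SE 0.38).

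*Gbp7* (0.54, SE 0.24) was, beside *Iigp1* and *Cxcl9*, the last of 3 genes of the set with an unadjusted p under 0.05, all above 0, against 7.12% of all genes tested. *Gbp2* was at 0.44 (SE 0.24) and *Irgm1* at 0.04 (SE 0.15). *Gbp5* was not fitted, and its 4T1-CAT levels of 4.51, 3.40, 4.31, 3.50 and 0.574 CPM lay above the controls (0 to 1.53 CPM) in 4 of 5 tumors (exact permutation p = 0.0346, not adjusted). Of the other interferon-inducible GTPases, 6 of 12 had an unadjusted p under 0.05, all above 0. T and NK cell markers lay above 0 in 8 of 9 (median 0.42, 2 with an unadjusted p under 0.05) and neutrophil markers in 5 of 5 (0.56), while macrophage markers lay above 0 in 3 of 7 (−0.01), and the part of these cells in the values of the set was not tested. Replicates 1 to 3 of 4T1-CAT carried most of the difference in *Iigp1* and *Cxcl9*, and replicate 5 lay within the range of the controls for both.

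The 4T1-control line on DOX diet was set against parental 4T1, both with alum. No gene was called (0% of 12431; 10.5% at an unadjusted p under 0.05 in edgeR, none of them in the set). *Iigp1* spanned 17.4 to 43.1 CPM in 4T1-control and 23.3 to 64.2 CPM in 4T1 (log2 fold change −0.43, SE 0.26, interval −0.97 to 0.10). *Cxcl9* was at −0.30 (SE 0.36) and *Cxcl10* at −0.04 (SE 0.28), and 8 of the 9 genes tested lay below 0, as did 52.1% of all genes. With the second technical libraries alone, *Gbp3*, *Gbp7*, *Igtp*, *Iigp1* and *Cxcl10* lay above 0 instead (0.032 to 0.25). T and NK cell markers lay above 0 in 6 of 6 (median 0.44). Transduction and diet differ together here, 2 of the 5 4T1 tumors came from the other index set, and these cannot be told apart. Within 1 index set no gene of the set was called, and *Gbp6* was at 0.32.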

How the data were processed

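RNA of 38 whole tumors (76 libraries) had been sequenced with HT3DGE, a polyA method with reads near the 3′ end. The authors deposited an estimated count (expected count) per gene and library, without normalization, made with a Smart-seq2 pipeline on Terra; aligner, build and handling of molecular identifiers are not given in the sources used here. Among values above 0, 39.7% had a fractional part. The authors excluded some technical replicates for low depth without naming them, so all libraries were kept, and 0 sample columns were left unused. All 55536 gene IDs were found in GENCODE M21.

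The 2 libraries of each tumor were added, then rounded to whole numbers (493044 to 9077549 counts per tumor; the fewer the counts, the wider the intervals of low genes). Groups followed the sample labels. Genes were filtered with filterByExpr (minimum count 10), normalized with TMM and compared in edgeR by the quasi-likelihood F-test across every gene past the filter, with only the groups compared in the model, at a Benjamini-Hochberg adjusted p of 0.05. Log2 CPM used a prior count of 2. Single values were compared by exact two-sided permutation tests. P-values set a difference between groups against the spread between tumors. Intervals are at the 95% level. The test was checked on simulated counts with known changes. The methods of the study used DESeq2, which was an alternative here, beside RLE size factors, no filter, a model over all 7 groups, single technical libraries, libraries under 518752 counts left out (7 libraries), index set (the first part of the index tag) as a block, replicate number as a block, a prior count of 0.5 and leaving out each tumor. The comparison within one index set and the count of *Gbp6* with *Gm43302* were added after values were seen. Computation used Python 3.11.15 with matplotlib 3.10.9, DESeq2 1.42.0, edgeR 4.0.16 and limma 3.58.1 under R 4.3.3.

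The 10 genes, the gene lists and the tests were chosen with earlier results of these data known. Genes were named by rule: the 10 members, *Ifng*, *Ifngr1*, *Ifngr2*, *Irf1*, *Cxcl11*, *Cxcr3* and *Cat* in every comparison, up to 3 called genes of each list by smallest adjusted p, and the 8 genes most like the mean of the set; not each of these is printed, and 1 gene of this rule is not reported here. *Gm43302*, *Art3* and *Irgm2* have models that overlap members. In both line comparisons, dendritic cell markers were called higher in 1 and 2 and lower in 1 of 5. Neutrophil markers were called higher in 1 and 2 of 5, and endothelial markers lower in 0 and 1 of 4. Over all genes tested, 21.3% and 21.8% were called higher, and 21.1% and 23.7% lower.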

Additional observations from a re-analysis of the deposited data

Results flagged for a closer look

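In each of the 7 groups, each of the 10 genes was examined for a tumor whose gap to the nearest other, divided by the range of the group on the log2 CPM scale, exceeded Dixon's critical value. Of 70 such examinations 9 met it, where chance alone gives about 1 in 20, and genes that vary together do not count separately. The lowest tumor of the CT26 alum group, replicate 5, accounted for 4 of them, with a ratio of 0.889 for *Gbp2* (413 CPM), 0.742 for *Igtp* (331 CPM), 0.821 for *Iigp1* (248 CPM) and 0.841 for *Cxcl10* (72.6 CPM). In 4T1 alum tumors, replicate 5 was low for *Gbp2* (0.767, 52.8 CPM) and replicate 4 high for *Irgm1* (0.731, 193 CPM). Replicate 4 of the 4T1 tumors given CAT-ABP + alum was low for *Gbp2* (0.759, 42.3 CPM), resting on 38 counts. For *Gbp5*, replicate 5 of 4T1-CAT with CAT-ABP + alum was low (0.840, 0.574 CPM, 4 counts), and so was replicate 2 of 4T1-control (0.679), with 0 counts in the shallowest tumor of the series (493044 counts). Among 20 tests of a difference in effect between lines, 0 passed the threshold in edgeR.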

How the results depend on the processing

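The number of genes of the set called was 10 in both comparisons of the lines and 0 elsewhere under the alternatives that were run, with 2 kinds of exception. With the second technical libraries alone it was 9 with alum and 8 with CAT-ABP + alum, because *Gbp5*, and with CAT-ABP + alum also *Gbp6*, did not pass the filter on low counts. For both catalases together, DESeq2 called 1 (*Iigp1*) and edgeR without the filter called 2 (*Iigp1* and *Cxcl9*); the cause was not tested. Leaving out each tumor gave 10 to 10 in the line comparisons and 0 to 0 in all others. With the replicate number as a block, no gene of the set changed its direction or its side of the threshold. Same-numbered tumors did not deviate together (correlations from −0.290 to 0.335), so the numbers were not taken as pairs, and over all genes the block gave 3 calls in place of 0 for CAT-ABP in 4T1-CAT and 1 in place of 3 for both catalases. Calls over all genes also moved with DESeq2, to 249 for CAT-ABP in 4T1-CAT, 16 for 4T1-control against 4T1, 6 for intracellular catalase and 510 for both catalases. Without the filter they were 47, 130, 131 and 532 in the same order, and 16 for CAT-ABP in 4T1. CAT-ABP in CT26 gave 1 call with DESeq2 and 1 without the filter, and the interactions gave 2 (CT26 with 4T1) and 1 (4T1-CAT with 4T1) without it. For CAT-ABP in CT26 and for intracellular catalase, the paper reported more genes with DESeq2 than were called here. It left out some technical replicates, and the source of the difference was not tested. One model over the 7 groups gave 31 for both catalases and 10 for 4T1-control against 4T1, leaving out low depth gave 142 and 14, and the latter comparison gave 1 within index sets. The first libraries gave 0 and the second 1 for both catalases. For both catalases they were 575 without replicate 3 of 4T1-control, 131 without its replicate 2, and 0 without replicate 1 of 4T1-CAT with CAT-ABP + alum. With the second technical libraries alone, the lines differed in 2849 genes (5434 in the summed libraries) with alum and 3559 (5928) with CAT-ABP + alum. Depth limited *Gbp5* and *Gbp6*, at 0 to 34 and 0 to 75 counts per tumor in the 4T1 family.

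Log2 fold changes that no test called changed sign in 30 cases, none in CT26 or between the lines. For CAT-ABP in 4T1 these were *Gbp2* 0.021 and *Igtp* −0.0077 (second technical libraries), and *Gbp5* −0.25 and *Gbp6* −0.054 (index set as a block) or −0.23 and −0.046 (within index sets). In 4T1-CAT they were *Cxcl9* −0.10 and *Cxcl10* 0.18 (second libraries). For intracellular catalase they were *Gbp2* −0.0077 (DESeq2) and −0.022 (first libraries) and *Irgm1* 0.071 (second), and for both catalases *Irgm1* −0.037 (first). In 4T1-control against 4T1 they were *Cxcl10* 0.034 (DESeq2), *Cxcl9* 0.12 (first), *Gbp3* 0.032, *Gbp7* 0.15, *Igtp* 0.050, *Iigp1* 0.25 and *Cxcl10* 0.046 (second), and *Gbp6* 0.30 (index set as a block) and 0.32 (within index sets). In the interaction of 4T1-CAT with 4T1 they were *Gbp6* −0.076 (7 groups), −1.20 (first) and −0.071 (low depth left out), *Gbp7* −0.27, *Irgm1* 0.076, *Iigp1* −0.47 and *Cxcl9* −0.37 (second), and *Igtp* −0.15 and *Iigp1* −0.19 (index set as a block).

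Leaving out 1 tumor at a time took further uncalled values across 0. For CAT-ABP in CT26, *Cxcl10* ranged from −0.50 to 0.0019. For CAT-ABP in 4T1 the ranges were −0.093 to 0.37 for *Gbp5*, −0.15 to 0.21 for *Igtp*, −0.080 to 0.30 for *Cxcl9* and −0.091 to 0.51 for *Cxcl10*. In 4T1-CAT they were −0.043 to 0.28 for *Irgm1*, −0.047 to 0.87 for *Cxcl9* and −0.46 to 0.25 for *Cxcl10*. Intracellular catalase gave −0.30 to 0.17 for *Gbp2*, −0.40 to 0.23 for *Gbp6*, −0.20 to 0.32 for *Igtp* and −0.26 to 0.075 for *Irgm1*, and both catalases −0.071 to 0.99 for *Gbp6* and −0.051 to 0.13 for *Irgm1*. In 4T1-control against 4T1 the ranges were −0.34 to 0.065 for *Gbp3*, −0.67 to 0.091 for *Gbp6*, −0.21 to 0.077 for *Igtp* and −0.19 to 0.23 for *Cxcl10*. In the interaction of 4T1-CAT with 4T1 they were −0.75 to 0.39 for *Gbp6*, −0.088 to 0.25 for *Gbp7*, −0.0016 to 0.54 for *Igtp*, −0.15 to 0.19 for *Irgm1*, −0.11 to 0.58 for *Iigp1*, −0.18 to 0.76 for *Cxcl9* and −0.73 to 0.039 for *Cxcl10*.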

Other observations

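In 4T1 tumors given CAT-ABP + alum, all 14 type I interferon response genes tested lay above 0 relative to alum (median log2 fold change 0.36). Of these, 5 had an unadjusted p under 0.05 in edgeR, against 1.53% of all genes in that direction. In the same comparison the 10 genes of the set had a median of 0.13, and 0 of them had an unadjusted p under 0.05; the difference between the lists was not tested. The other IFN-γ targets were below 0 in 13 of 19 (median −0.05). None of these genes passed the adjusted threshold, and only 2 of the 5 alum tumors shared an index set with the treated ones. T and NK cell markers were above 0 in 7 of 8 there, with a larger median (0.58), and macrophage markers below 0 in 7 of 8 (median −0.30, 3 with an unadjusted p under 0.05, against 1.35% of all genes in that direction); their part in these values was not tested.

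Where CAT-ABP + alum was given to 4T1-CAT tumors, the other interferon-inducible GTPases lay above 0 in 9 of 12 relative to 4T1-CAT with alum (median 0.44, 3 with an unadjusted p under 0.05 in edgeR against 6.75% of all genes in that direction), while fibroblast markers lay below 0 in 6 of 6 (median −0.39) and epithelial markers above 0 in 5 of 5 (median 0.24).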
